A study of Rattus norvegicus with 24 samples.

Results

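The genes of the cytosolic ribosome were described in 2 reward-related brain regions of rats whose fathers had self-administered morphine or saline. Members were chosen by name: a symbol of Rpl or Rps, digits and at most 1 further letter a, x or y, plus Rplp0, Rplp1, Rplp2 and Rpsa. This gave 77 of the 37403 identifiers of each count table, of which 46 encode proteins of the large and 31 proteins of the small subunit. All 77 passed the filter on low counts in every comparison, so none was lost to it. RNA came from bilateral punches, of the nucleus accumbens (here NAC) or of the dopamine neuron region known as the ventral tegmental area (here VTA), taken from rats described as male and at least 60 days old. SAL-sired rats had a father that self-administered saline over 60 days, and in MOR-sired rats the father self-administered morphine over the same time. No agent given to the offspring themselves is named in the labels. For NAC, each sire group has 7 libraries, and for VTA each has 5. The labels describe biological replicates but name neither animal nor litter, so each p-value reflects only how far these libraries spread, and littermates could not be accounted for.

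Each cytosolic ribosome joins a small subunit, which reads the mRNA, to a large subunit, which forms the peptide bonds. Its proteins are needed in nearly equal numbers in every cell, and their mRNAs are among the most abundant of the brain. Many of these mRNAs begin with a C followed by a run of pyrimidines, the 5′ terminal oligopyrimidine (TOP) tract, through which the kinase mTOR and the protein Larp1 control their translation. In neurons, some ribosomes and ribosomal protein mRNAs also lie in dendrites and axons, and phosphorylated Rps6 is widely used as a marker of active neurons. Mammalian genomes carry many processed copies of these genes, so reads can match several loci.

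The starts of 6 members are shown because they carry the sequence feature that names TOP mRNAs, or lack it at the annotated start, and because their levels are described below. Of the 77 members, 62 matched the RefSeq promoter table of assembly GRCr8, in 63 windows, since Rps27a has 2. Each line gives 10 bases before the annotated start and 20 from it onward, 5′ to 3′ on the gene's own strand. Capitals mark the pyrimidine run from the first transcribed base.
Rplp1, chr8:71290853-71290882, minus strand: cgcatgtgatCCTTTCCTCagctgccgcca
Rps7, chr6:50999426-50999455, minus strand: agagctgtgtCTCTTTCTaagccggcactc
Rpl31, chr9:49143101-49143130, plus strand: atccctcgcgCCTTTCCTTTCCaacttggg
Rps26, chr7:1643385-1643414, minus strand: ccgccgggtcCTCTTTCgagtcttggctcc
Rps6, chr5:106420521-106420550, minus strand: ctcctaggcggtcggctgtgtcaagatgaa
Rps2, chr10:14251838-14251867, plus strand: tctttttcttcgggaaaacacgtgagtctg
A start of C followed by 4 bases that are each C or T, read on the gene's strand, was found in 24 of the 63 member windows (38.1%) and in 2.63% of all 33469 windows of the table. Allowing the same pattern anywhere from 5 bases before to 10 bases after the annotated start gave 63.5% of member windows and 17% of all windows. Rps6 and Rps2 have no such run at the annotated base, which says only that these letters are not at this annotated position. The letters CCGGAAG, on either strand of the 300 base window, were found in 31.7% of member windows and 8.75% of all windows. The letters AAGATGGC, on either strand, were found in 7.94% and 3.17%.

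Totals, in units of 1e6 estimated counts, were 21.9 to 41.3 in NAC libraries and 23.6 to 43.5 in VTA libraries. The dopamine neuron genes Th, Slc6a3, Slc18a2 and Ddc summed to 2909 to 6588 counts per 1e6 counts (CPM) in VTA and to 10.7 to 16.6 CPM in NAC. Genes of cortical projection neurons summed to 133 to 1561 CPM in NAC and to 5.36 to 131 CPM in VTA. Of the 10 VTA libraries, 4 carried Xist at 78.9 to 108 CPM and almost no Ddx3y, which goes against the male label: SAL-sired replicate 5 and MOR-sired replicates 3, 4 and 5. In MOR-sired VTA replicates 2 and 4, the 3 ribosomal RNA identifiers Rn28s, Rn18s and Rn5-8s held 10.8% and 4.53% of the estimated counts, against 0.0866 to 0.599% in the other 22 libraries. That lowers the plain CPM of most other genes in these libraries, and only 16.1% of all genes were above their group mean in MOR-sired VTA replicate 2. The summaries of the VTA comparisons are also given without the libraries with Xist and without those with high ribosomal RNA.

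The summed share of the 77 members did not separate the sire groups. In SAL-sired NAC the members summed to 5.62% at the lowest, 6.23% at the median and 6.502% at the highest, with a mean of 6.14% ± 0.300 (SD, n = 7). In MOR-sired NAC the lowest, median and highest were 5.52%, 5.96% and 6.71%, with a mean of 6.07% ± 0.404 (n = 7). The 2 groups overlapped over most of their range. The 5 SAL-sired VTA libraries held 6.00%, 5.71%, 5.49%, 5.49% and 5.69%, with a mean of 5.68% ± 0.209. The 5 MOR-sired VTA libraries held 5.89%, 5.10%, 5.40%, 5.22% and 5.43%, with a mean of 5.41% ± 0.302. The lowest values were those of the 2 libraries with high ribosomal RNA. With the identifiers of unnamed loci and small or ribosomal RNAs left out of the total, the VTA means were 5.88% in SAL-sired and 5.89% in MOR-sired libraries.

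The balance of the subunits differed little between groups. The ratio of small-subunit to large-subunit counts was 0.742 ± 0.00896 in SAL-sired NAC, 0.746 ± 0.0156 in MOR-sired NAC, 0.723 ± 0.00552 in SAL-sired VTA and 0.715 ± 0.0123 in MOR-sired VTA (SD). Within a group, many members were high or low in the same library. In SAL-sired NAC replicate 5, 68 of the 77 members lay above their group mean on the CPM scale, beside 46.6% of all genes, and in MOR-sired NAC replicate 4, 65 did, beside 53.0%. In SAL-sired NAC replicate 1 and MOR-sired NAC replicate 2, 8 did, beside 50.4% and 52.8% of all genes. In MOR-sired VTA replicate 1, 74 did, beside 61.6% of all genes, in a group whose mean the libraries with high ribosomal RNA lower. Across the 14 NAC libraries, with group means removed, the median Pearson r of a member with the mean of the others was 0.71. Across the 10 VTA libraries it was 0.58, on plain CPM that include the 2 libraries with high ribosomal RNA. No like value for other genes is given, so neither r is shown to be particular to the members. These values share library and depth and are a description. Rpl28, a protein of the large subunit, went against the rest in NAC, at -0.61.

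**Figure D1:**
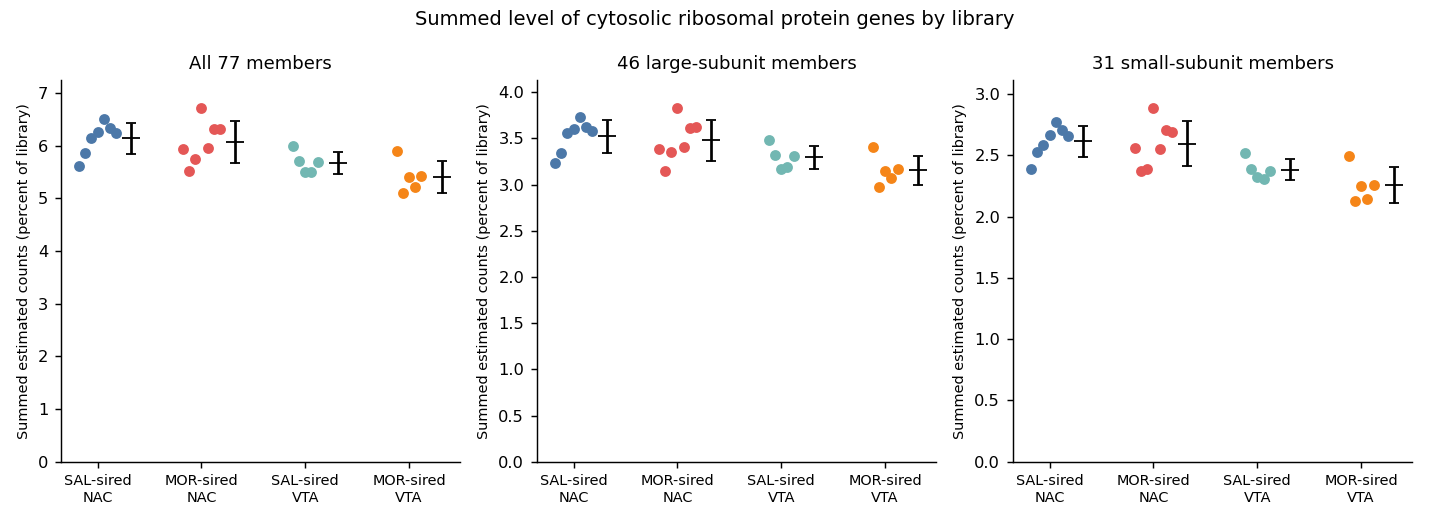
Summed estimated counts of all members, of the large-subunit and of the small-subunit members, in percent of the library (vertical axis, from 0), for the 4 groups. Each point is 1 library, and the bar beside each group is its mean with the SD. The SAL-sired and MOR-sired points overlap in each region, and every VTA total lies below the NAC mean of 6.10%.

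The estimated counts were made per transcript length, and levels are set side by side between genes on that basis. Whether this makes them comparable for every member was not tested. Levels spanned over 100-fold, but most members lay close together. Over all 24 libraries the median member averaged 691 CPM, 67 members averaged between 200 and 2000 CPM, and 7 averaged under 200 CPM. The highest was Rps29, a small zinc-binding protein of the small subunit, at 2240 ± 399 CPM (SD, n = 24). It was followed by Rpl41, whose protein is the shortest of the ribosome, at 2109 ± 168 CPM, Rpl37a at 2058 ± 132 CPM, the stalk gene Rplp1 at 1968 ± 525 CPM and Rps21 at 1501 ± 208 CPM. The ranges of these genes, from lowest to highest library, overlapped, and their order within single libraries was not compared. Members of the same part of the ribosome differed: in NAC, of the acidic stalk genes, Rplp1 averaged 2361 CPM, Rplp2 828.5 CPM and Rplp0 692 CPM. The 5S particle genes Rpl5 and Rpl11, whose free proteins bind Mdm2, were closer, at 557 and 619 CPM in NAC. Rps27a, which is made as a fusion with ubiquitin, averaged 471 CPM there, and Rpl3, which lies near the peptidyl transferase centre, averaged 691 CPM.

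The lowest members were Rps20 at 16.1 ± 4.19 CPM (SD, n = 24), Rpl9 at 22.6 ± 4.03 CPM, Rpl22 at 71.1 ± 7.45 CPM, Rps14 at 79.5 ± 31.5 CPM and Rpl37 at 80.8 ± 29.2 CPM. Except for Rpl22, these are essential core proteins, and each has a named copy in the tables with a far higher value.

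**Figure D2:**
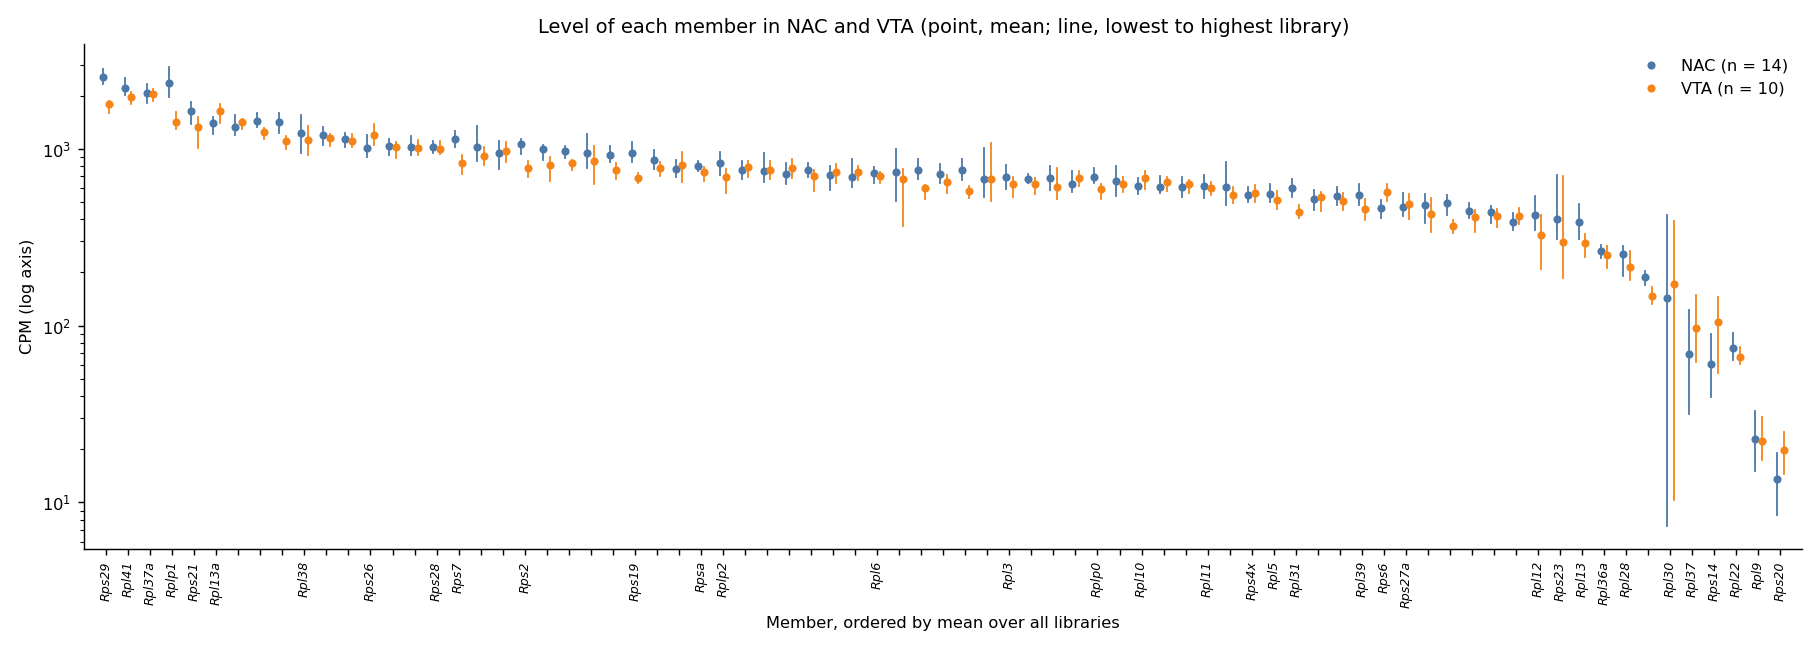
Level of each of the 77 members in CPM (vertical axis, log scale), ordered from left to right by the mean over all libraries, with labels for members named in the text. Points are means over the 14 NAC and 10 VTA libraries, and lines run from the lowest to the highest library. Most members lie within a narrow band, Rpl30 spans the widest range, and Rpl9 and Rps20 lie lowest.

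For 6 members most of the joint signal lay under the names of copies. The tables hold 238 identifiers named as copies (the member's symbol followed by l or -ps and a number) of 65 members, and 18 of the 238 had no count in any library. For most members the copies were minor, but for Rpl37, Rps14, Rpl9, Rps20, Rpl30 and Rpl36a they held over 50% of the joint counts in both regions. The identifier Rpl37l1 averaged 1959 CPM in NAC and Rpl37 itself 69.0 CPM. The pseudogene Rps14-ps7 averaged 1475 CPM, against 60.8 CPM for Rps14. Rpl9-ps30 averaged 856 CPM, against 22.8 CPM for Rpl9, and Rps20-ps11 701 CPM, against 13.6 CPM for Rps20. With the copies added, Rpl9 came to 879 CPM and Rps20 to 716 CPM in NAC, near the family median of 712 CPM, while Rps14 came to 1536 CPM and Rpl37 to 2031 CPM. Because such sequences can be nearly identical, which locus the transcripts came from cannot be told apart here, and values of these 6 members are uncertain.

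Rpl30, a large-subunit protein, showed the split most clearly, library by library. It ranged from 7.39 to 423 CPM in NAC, 57.3-fold, and its copies, mainly Rpl30l2, from 6.67 to 947 CPM. The 7 SAL-sired NAC libraries had 389, 22.9, 423, 19.8, 191, 194 and 11.3 CPM of Rpl30. The 7 MOR-sired NAC libraries had 11.6, 155, 377, 15.0, 7.39, 11.2 and 185 CPM. Both groups held libraries near the lowest and near the highest of these values, so the groups overlapped fully. Added to its copies, Rpl30 ranged from 395 to 962 CPM in NAC, 2.43-fold, and from 397 to 698 CPM in VTA. No other member varied over 10-fold between libraries of a region.

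**Figure D3:**
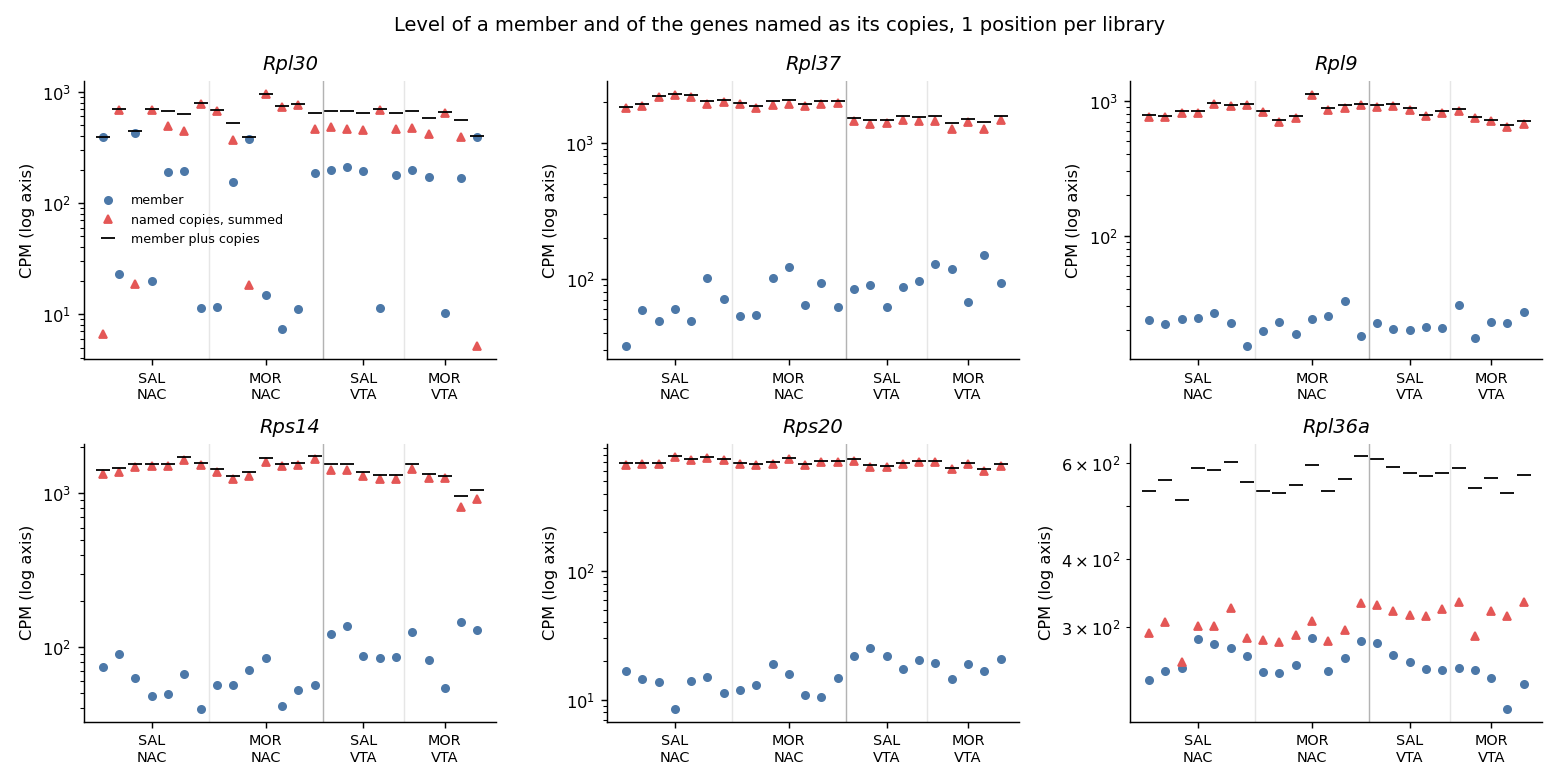
CPM (log axis) of 6 members, of the genes named as their copies and of both together, with 1 position per library in the order SAL-sired NAC, MOR-sired NAC, SAL-sired VTA, MOR-sired VTA. For Rpl30 the member and the copies trade places between libraries, while their sum stays within 395 to 962 CPM. For Rpl37, Rpl9, Rps14 and Rps20 the copies lie far above the member in every library.

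The first comparison asked whether the sire's morphine changed the level of these genes in the NAC. No member passed, and none reached an unadjusted p under 0.05 (edgeR's quasi-likelihood test, Benjamini-Hochberg adjustment over 18220 genes), while 6.18% of all genes did and 0% passed after adjustment. DESeq2 and limma-voom called 0 members too, and 74 and 52 genes in all. The differences were small: 72 of 77 members were within 1.1-fold of equality, with a median log2 fold change of -0.026 (MOR-sired over SAL-sired) beside -0.0011 for all genes. Leaving out 1 library moved the members' median, to -0.0027 without MOR-sired replicate 2 and to -0.054 without MOR-sired replicate 4. Fitted values were below 0 for 57 of 77 members and for 50.5% of all genes. Members rose and fell together within libraries, so such counts, here and below, are not of independent genes and were not tested. No member had groups that did not overlap in CPM, beside 0.0768% of all genes.

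Among members with the smallest p in NAC, Rpl12, a stalk-base protein, had 347, 419 and 543 CPM (lowest, median, highest) in SAL-sired and 368, 390 and 471 CPM in MOR-sired libraries. The groups overlapped, and the log2 fold change was -0.17 (SE 0.090, adjusted p 0.837 by edgeR). Rps28, which lies at the mRNA exit of the small subunit, had 989, 1051 and 1102 CPM against 946, 993 and 1103 CPM, a log2 fold change of -0.080 (SE 0.046). Rps23, a protein of the decoding centre, had 307, 344 and 478 CPM in SAL-sired and 362, 404 and 709 CPM in MOR-sired libraries. Its log2 fold change of 0.24 (SE 0.15) was 0.084 without MOR-sired replicate 2, which held the 709 CPM. The log2 fold change of Rpl3 was -0.093 (SE 0.059) and that of Rpsa, a small-subunit protein also known as a laminin receptor, was -0.059 (SE 0.038). Rpl37 had 0.37 (SE 0.24), but -0.095 with its copies added. The fold change of Rpl30 was 0.615, with a 95% interval of 0.136 to 2.78.

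For members fixed by role the intervals were narrow. Rps6, the S6 kinase target, had 437, 461 and 492 CPM in SAL-sired NAC and 406, 463 and 513 CPM in MOR-sired NAC. Its fold change was 0.990 (95% interval 0.913 to 1.07). Rps19, the gene most often mutated in Diamond-Blackfan anemia, had a fold change of 0.983 (0.905 to 1.07), and Rpl41 of 1.00 (0.924 to 1.09). Rplp0, often used as a reference gene in quantitative PCR, had a fold change of 0.960 (0.889 to 1.04).

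In VTA the sire comparison also called no member, and DESeq2 and limma-voom called none, while DESeq2 called 115 genes in all. At an unadjusted p under 0.05 there were 2 members, Rpl9 and Rpl37, both among the 6 with dominant copies, beside 5.31% of all genes. Fitted values were above 0 for 45 members and below for 32, and 47.4% of all genes were above 0. The median log2 fold change was 0.014 over the members, beside -0.0065 for all genes. These signs rest on the scaling. With no scaling beyond the library total, fitted values were below 0 for 64 members. The members' median was then -0.077, beside -0.090 for all genes. After adjustment 0% of all genes passed. Rpl9 had 22.3, 20.1, 19.95, 20.9 and 20.4 CPM in SAL-sired and 30.5, 17.4, 22.7, 22.5 and 27.0 CPM in MOR-sired VTA. The groups overlapped, and the log2 fold change of 0.28 (SE 0.096, adjusted p 0.869 by edgeR) became -0.14 with its copy added. Rpl37 had 83.8, 90.3, 62.2, 86.9 and 96.6 CPM against 128, 118, 66.8, 149 and 92.5 CPM, a log2 fold change of 0.50 (SE 0.22). With copies added it was 0.058.

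Of the next smallest p values in VTA, Rps19 had 683, 680, 695, 686 and 686 CPM in SAL-sired and 728, 638, 732, 667 and 690 CPM in MOR-sired libraries. The MOR-sired values lay on both sides of the SAL-sired ones, and the log2 fold change, which scales for the ribosomal RNA, was 0.098 (SE 0.047, adjusted p 0.951 by edgeR). Rps26 had 0.15 (SE 0.083), and Rps20 had -0.16 (SE 0.089), or 0.028 with copies added. The member with the largest fitted value, Rps23, at 0.66 (SE 0.40), had 478 and 699 CPM in MOR-sired replicates 1 and 2. Its other MOR-sired values were 187 to 211 CPM, within or just below the SAL-sired range of 209 to 287 CPM. This gene was singled out after its values were seen.

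In the VTA sire comparison without the 4 libraries with Xist, which leaves 4 SAL-sired and 2 MOR-sired, the members' median log2 fold change was 0.096, that of all genes -0.014, and no member was called. Without MOR-sired replicates 2 and 4, which are high in ribosomal RNA, the members' median was -0.0061, that of all genes -0.00082, and no member was called. Leaving out 1 library gave medians from -0.0093, without MOR-sired replicate 2, to 0.043, without MOR-sired replicate 5.

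The 4 X-linked members were read beside Xist. In VTA, Rpl36a had 213 to 251 CPM in the 4 libraries with Xist and 250 to 281 CPM in the other 6. Rps4x had 520 to 559 CPM against 502 to 627 CPM, Rpl10 609 to 752 against 591 to 726 CPM, and Rpl39 398 to 478 against 432 to 521 CPM. The 4 ranges overlapped, Rpl36a by less than 1 CPM. Most of the joint counts of Rpl36a lie under its copies. These plain CPM also include MOR-sired replicates 4 (with Xist) and 2 (without), which are high in ribosomal RNA. As 3 of the 4 libraries with Xist are MOR-sired, Xist and sire group are partly joined in these values.

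**Figure D4:**
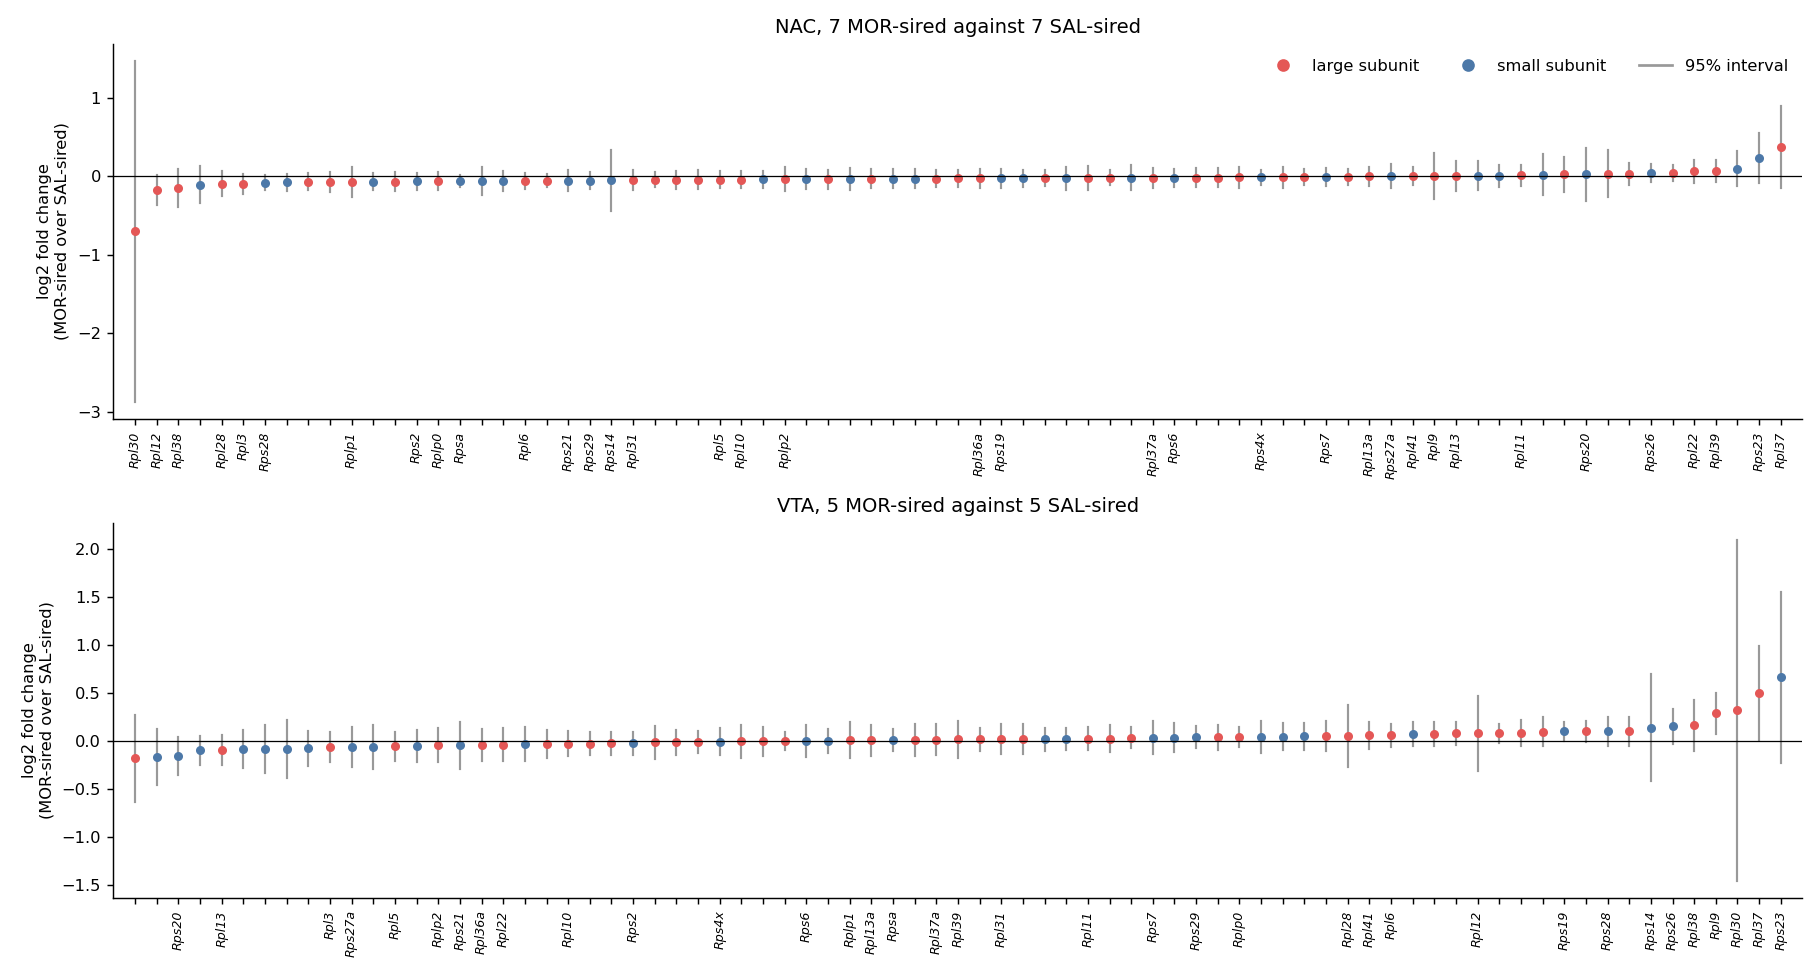
Log2 fold change of each member, MOR-sired over SAL-sired, in NAC (top) and VTA (bottom), each ordered by its own value. Points are large-subunit and small-subunit members, and lines are 95% intervals. In NAC 72 and in VTA 67 of the 77 members lie within 1.1-fold of equality, and those with wide intervals include Rpl30, Rps23 and Rps14.

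No difference in the sire effect between the regions was called for any member. The edgeR contrast over all 24 libraries called 0 of 77, and 1 member had an unadjusted p under 0.05, beside 4.78% of all genes, of which 0% passed after adjustment. DESeq2 and limma-voom called 0 members, and 178 and 0 genes in all. That member was Rps28, with a difference of 0.19 (SE 0.076, unadjusted p 0.0209, adjusted p 0.964). It was at 941 to 1044 CPM in SAL-sired VTA and 948 to 1111 CPM in MOR-sired VTA, so its groups overlapped there as in NAC. Among large-subunit members the difference was 0.32 (SE 0.17) for Rpl38 and 0.13 (SE 0.069) for Rpl6. The difference was above 0 for 60 of 77 members and for 49.3% of all genes, with a median of 0.050 over the members. With no scaling beyond the library total the members' median was -0.062 and that of all genes -0.11. Relative to the median of all genes it was 0.053 under TMM, RLE and upper-quartile scaling and 0.051 with library totals, with 17 or 18 of 77 members below that median. Near-equal values were built in here, since subtracting that median removes nearly all that a scaling shifts. Without the 4 libraries with Xist the median of the members was 0.14, and without the 2 with high ribosomal RNA it was 0.035.

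Most members called between the regions were lower in VTA. The share of members called was near that of all genes in SAL-sired libraries and below it in MOR-sired libraries. In SAL-sired libraries 38 members (49.4%) were called lower in VTA than in NAC and 4 higher, 54.5% in all (edgeR, adjusted over 20603 genes). Of all genes 29.7% were called lower and 29% higher, 58.7% in all. In MOR-sired libraries 27 members (35.1%) were called lower and 5 (6.49%) higher, 41.6% in all. Of all genes 30.4% were called lower and 27.8% higher, 58.2% in all. These contrasts compare the means of different libraries but come from the same fit over all 24 libraries. They share its filter and its estimate of spread, so their calls are not independent. In both contrasts 25 members (32.5%) were lower, beside 26.7% of all genes, and 4 (5.19%) were higher, beside 23.9%. The median log2 fold change (VTA over NAC) of the members came to -0.16 for SAL-sired and to -0.11 for MOR-sired libraries, beside 0.033 and -0.0027 for all genes. Groups did not overlap in CPM for 23 members (29.9%) in SAL-sired libraries, beside 41.9% of all genes, and for 19 (24.7%) in MOR-sired libraries, beside 32.4%. Regions were deposited in separate tables with separate library numbers, so region and any difference in handling cannot be told apart.

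The split into higher and lower rests on the scaling. With upper-quartile scaling the median of all genes moved to 0.17 in SAL-sired and 0.11 in MOR-sired libraries. Then 12 members were called higher and 19 lower in SAL-sired libraries, and 15 and 17 in MOR-sired libraries. With library totals alone the SAL-sired counts were 10 and 23 and the median of all genes 0.13. Relative to the median of all genes, the members' median was -0.19 in SAL-sired libraries under all 4 scalings (TMM, RLE, upper quartile and library total), with 63 of 77 members below it. In MOR-sired libraries it was -0.11 under each, with 54 of 77 below. Subtracting the median of all genes removes nearly all that a scaling shifts, so this agreement between scalings was built in. Called lower in both sire groups under all 4 scalings were 15 of 77 members, a share near the 21% of all genes that met the same rule. Among them were Rplp1, Rps29, Rps19, Rps2, Rps7, Rpl13 and Rpl31. Without the 4 libraries with Xist, which leaves 2 MOR-sired VTA libraries, the MOR-sired median of the members was -0.040 and that of all genes -0.045, with 18 members called lower. In SAL-sired libraries the median was then -0.18, with 40 called lower. Without the 2 libraries with high ribosomal RNA the MOR-sired median of the members was -0.10, with 24 called lower and 5 higher. Without MOR-sired VTA replicate 5 it was -0.069.

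The stalk of the large subunit recruits elongation factors, and its gene Rplp1 had the lowest log2 fold change of all members in both contrasts. Rplp1 had 1964, 2568 and 2642 CPM (lowest, median, highest) in SAL-sired NAC and 1628, 1465, 1335, 1366 and 1492 CPM in SAL-sired VTA. In MOR-sired NAC it had 2076, 2180 and 2910 CPM, and in MOR-sired VTA 1551, 1309, 1445, 1289 and 1293 CPM. Every VTA library was below every NAC library. The log2 fold change was -0.81 (SE 0.092, adjusted p 8.61e-08 by edgeR) in SAL-sired and -0.73 (SE 0.092, adjusted p 4.33e-07) in MOR-sired libraries. Its partners were called lower too, Rplp0 at -0.32 and -0.21 and Rplp2 at -0.29 in each. Rpl12, at the stalk base, had -0.54 and -0.28, and was called in SAL-sired libraries alone. In all, 4 of 4 stalk genes were called lower in SAL-sired and 3 of 4 in MOR-sired libraries, beside 29.7% and 30.4% of all genes.

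Of the small subunit, Rps29 had 2335, 2554 and 2825 CPM in SAL-sired NAC and 1825, 1826, 1844, 1791 and 1855 CPM in SAL-sired VTA. In MOR-sired NAC it had 2374, 2585 and 2608 CPM, and in MOR-sired VTA 1845, 1603, 1809, 1762 and 1808 CPM. The regions did not overlap, with log2 fold changes of -0.59 and -0.49 (SE 0.048 each, adjusted p 3.91e-10 and 6.91e-09 by edgeR). Rps19 had 857, 969 and 1011 CPM in SAL-sired NAC and 840, 940 and 1101 CPM in MOR-sired NAC, all above its VTA values given earlier. It differed by -0.57 and -0.43. Rps2, which lies at the mRNA entry of the small subunit, differed by -0.51 and -0.46, and Rps7 by -0.53 and -0.48. Of 9 genes of Diamond-Blackfan anemia 4 were called lower in each contrast, beside 29.7% (SAL-sired) and 30.4% (MOR-sired) of all genes. Rps26, another of the 9, was called higher in MOR-sired libraries (0.25) with 0.13 in SAL-sired. In the large subunit Rpl13 had -0.40 and -0.49, and Rpl31, at the peptide exit tunnel, -0.52 and -0.44. The 5S particle gene Rpl5 was called lower, at -0.15 and -0.16, while Rpl11, at -0.085 and -0.063, was not called.

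Higher in VTA in both sire groups were Rps6, Rpl13a, Rps14 and Rps20, under all 4 scalings, beside 22.9% of all genes. The calls of Rps14 and Rps20 were less stable: Rps14 was lost in SAL-sired libraries without SAL-sired VTA replicate 2 (0.54, adjusted p 0.0560 by edgeR). Rps20 was lost in MOR-sired libraries without the libraries with Xist (0.35, adjusted p 0.211) and with the replicate number as a block (0.39, adjusted p 0.0509). Rps6 had 437, 461 and 492 CPM in SAL-sired NAC and 637, 598, 570.1, 564 and 569.5 CPM in SAL-sired VTA, which did not overlap. In MOR-sired NAC it had 406, 463 and 513 CPM and in MOR-sired VTA 616, 555, 553, 507 and 528 CPM, where 1 VTA library fell within the NAC range. Its log2 fold change was 0.25 (SE 0.063, adjusted p 0.00169 by edgeR) and 0.28 (SE 0.063, adjusted p 0.000651). Rpl13a, known for its part in silencing inflammatory mRNAs, had 1297, 1365 and 1490 CPM in SAL-sired NAC and 1767, 1677, 1652, 1623 and 1685 CPM in SAL-sired VTA, which did not overlap. In MOR-sired NAC it had 1220, 1485 and 1518 CPM and in MOR-sired VTA 1788, 1540, 1629, 1409 and 1577 CPM, where 1 VTA library fell within the NAC range. Its log2 fold change was 0.18 and 0.20. For Rps14 and Rps20, with 0.66 and 0.86, and 0.58 and 0.41, the direction turned when copies were added, to -0.21 and -0.26 for Rps14 and to -0.15 and -0.053 for Rps20. Of these, Rps14 was then called lower in MOR-sired libraries (adjusted p 0.0328 by edgeR) and Rps20 in SAL-sired libraries (adjusted p 0.0136). With copies added, Rpl37 was called lower, at -0.55 and -0.39, although the gene by itself had 0.40 and 0.54 and was not called. X-linked Rps4x had -0.0073 and 0.0088.

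**Figure D5:**
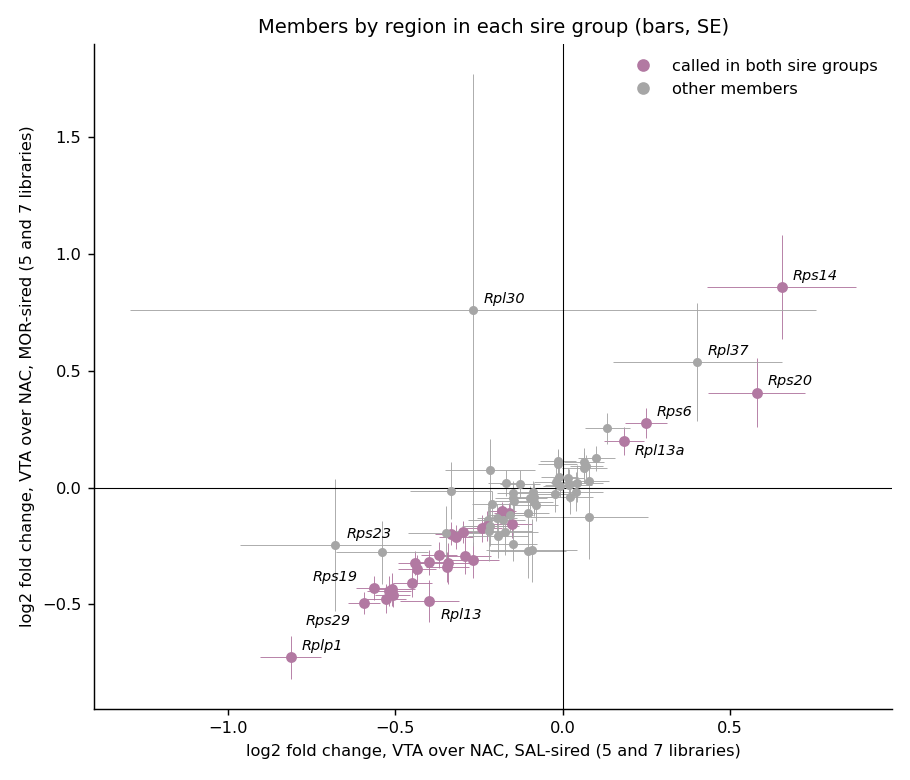
Log2 fold change of each member, VTA over NAC, in SAL-sired (horizontal axis) and MOR-sired libraries (vertical axis), with the SE as bars. Coloured points are the 29 members called in both. Rplp1 lies lowest on both axes, at -0.81 and -0.73, and Rps14 and Rps20, whose direction turns when copies are added, lie at the upper right with Rpl37.

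Genes with related roles were read in the same contrasts, VTA against NAC, in which 29% of all genes were called higher and 29.7% lower in SAL-sired, and 27.8% and 30.4% in MOR-sired libraries. Fau, which encodes a ribosomal protein fused to a ubiquitin-like protein, was lower in both sire groups, at -0.48 and -0.40. Rack1, which docks signalling proteins on the small subunit, was called in SAL-sired libraries, at -0.16, and had -0.090 in MOR-sired libraries. Of 18 translation factors with TOP mRNAs, 3 were called higher and 5 lower in SAL-sired and 4 and 3 in MOR-sired libraries, so this group had no common direction. The elongation factor Eef1a1 was not called, at -0.091 and 0.11, while Eef1a2, its neuron and muscle form, was lower, at -0.52 and -0.42. Larp1, which binds TOP tracts, was higher by 0.32 and 0.36, and Mtor lower, at -0.46 and -0.41. Of 20 genes of the mTOR and S6 kinase pathway 3 were called higher and 10 lower in each contrast. Of 36 ribosome biogenesis genes 3 were higher and 16 lower in SAL-sired libraries, and 4 and 15 in MOR-sired libraries, among them Ubtf, a factor of ribosomal RNA transcription, at -0.76 and -0.72. Of 74 mitochondrial ribosomal protein genes tested, 14 were higher and 34 lower, and 15 and 32. The paralog Rps27l, a p53 target, was higher by 0.67 and 0.45. Members with the TOP start at the annotated base had a median of -0.21 and -0.17 (n = 24), and the 37 other members with 1 window had -0.16 and -0.11, given without a test.

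In the sire comparisons none of these lists had a called gene in edgeR's test. The smallest p values in NAC included Rps6kb2, an S6 kinase, at 0.45 (SE 0.12, adjusted p 0.560), Noc2l at 0.25 (SE 0.067) and Eef1a1 at -0.18 (SE 0.054, adjusted p 0.562). In VTA, the mitochondrial ribosomal gene Mrpl37 had 0.13 (SE 0.049, adjusted p 0.912).

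Cell type markers moved with region. The 3 oligodendrocyte genes Mbp, Mog and Mobp were above 0 in every library and summed to 5709 to 8380 CPM in NAC and 17762 to 25607 CPM in VTA. The 4 neuron genes Snap25, Rbfox3, Syt1 and Stmn2 summed to 2606 to 4577 CPM in NAC and 2538 to 3337 CPM in VTA. Their part in the region differences of the members was not tested. In punches, fewer cells of a type and less RNA per cell cannot be told apart. Within NAC the sums of striatal neuron genes ran from 196 to 3900 CPM, so the punches themselves differed in content.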

How the data were processed

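The authors deposited estimated counts per gene, 1 table per region. Per the deposited file names these are transcript abundances (TPM) scaled to the library total, so values are per transcript length and carry no correction between libraries. Per the submitters' processing notes, Trim Galore, kallisto and DESeq2 were used. The sources used here give no build, annotation or strand setting. Promoter windows are RefSeq's for GRCr8, matched by symbol.

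Here the estimated counts were rounded and tested with edgeR 4.0.16 (R 4.3.3): TMM factors, filterByExpr, quasi-likelihood tests, Benjamini-Hochberg adjustment over all genes kept, called under 0.05, two-sided. Sire effects were fitted per region, and region contrasts and the interaction on 4 group means over 24 libraries. CPM is counts per 1e6 counts. SEs and 95% intervals are from the fit, and scripts were tested on simulated data. As the counts are scaled estimates, no counting intervals were computed. DESeq2 1.42.0, limma 3.58.1 (voom), other scalings, no filter, a replicate block, an Xist term and left-out libraries were alternatives. No 2 libraries had identical values.

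Members and lists were chosen with earlier results of these data known. Named members are, by rule, the 6 of smallest sire p per region, the 5 highest and 5 lowest, the 6 of largest region fold among those called in both sire groups, the 4 of smallest interaction p, a set fixed by role, X-linked members, up to 3 genes of smallest sire p per other list, and any member varying over 10-fold. Other genes named with values were chosen after they were seen. Some members and genes that these rules name are not reported here.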

Additional observations from a re-analysis of the deposited data

Results flagged for a closer look

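In 6 member groups, 1 library stood apart from the rest of its group by a gap that is large against the group's range (Dixon's criterion). Chance flags about 1 in 20 groups, and 136 groups were read (the members named here and the summed share, in each sire group and region).

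In MOR-sired NAC replicate 2, Rpl12 was at 471 CPM, the next library being at 412, and Rps23 at 709 CPM, the next being at 425. SAL-sired NAC replicate 7 had the lowest Rpl9, 15.0 CPM. SAL-sired NAC replicate 5 had the highest Rps26 of its group, 1123 CPM. MOR-sired VTA replicate 1, in which most members were high, had the highest Rpl22, 70.9 CPM. SAL-sired VTA replicate 4 had 11.3 CPM of Rpl30, where the other 4 libraries had 178 to 210.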

How the results depend on the processing

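No alternative called a member in either sire comparison or in the interaction. Region counts were less stable. Members called higher and lower in VTA were 12 and 19 (SAL-sired) and 15 and 17 (MOR-sired) with upper-quartile scaling, and 10 and 23 (SAL-sired) with library totals, which shift all genes. limma-voom called 10 higher in MOR-sired libraries. With copies added, 2 and 3 were higher; this and leaving out the 2 libraries high in ribosomal RNA, which changed no call of a named member, were chosen after seeing the data. Leaving out 1 library gave 3 to 6 higher and 30 to 42 lower in SAL-sired, and 5 to 11 higher and 22 to 31 lower in MOR-sired libraries, 11 without MOR-sired NAC replicate 4. Rps14 lost its SAL-sired call without SAL-sired VTA replicate 2 (0.54, adjusted p 0.0560 by edgeR). Rps20 lost its MOR-sired call without the Xist libraries (0.35, adjusted p 0.211).

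With copies added, direction reversed for Rpl37 in NAC (-0.095), Rpl9 (-0.14) and Rps20 (0.028) in VTA, and by region for Rps14 (-0.21, -0.26) and Rps20 (-0.15, -0.053), where reads are pooled over loci. Summed shares moved to 6.76%, 6.69%, 6.22% and 5.90% with copies (SAL-sired and MOR-sired NAC, then VTA). Leaving unnamed loci and small RNAs out of the total gave 5.89% in MOR-sired VTA. A sum with associated genes added is not reported here.

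A pairing by replicate number was not clear: same-numbered NAC libraries correlated at -0.32 to 0.15 and VTA libraries at -0.16 to 0.15. In VTA 3 of 5 correlated best with the library of their own number, and in NAC 0 of 7. Across regions same-numbered libraries correlated at -0.0097 to 0.090 in SAL-sired and -0.052 to 0.078 in MOR-sired rats. A replicate block gave 4 higher and 32 lower in SAL-sired and 5 and 22 in MOR-sired libraries. Under the block Rps20 missed the threshold in MOR-sired libraries (0.39, adjusted p 0.0509).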
